A study of Mus musculus with 24 samples.

Results

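A set of 10 genes of cell-mediated killing, taken by symbol from the 27368 genes of the count table, was followed across the study's 8 groups. They were the granzymes Gzma, Gzmb, Gzmc, Gzmd and Gzme, the pore protein gene Prf1, the granule membrane gene Nkg7 and the receptor genes Klrb1c, Ncr1 and Klrk1. All 10 were listed, and all 10 passed the filter on low counts that left 16560 tested genes. RNA was sequenced from 24 subcutaneous tumours of SCC7, a mouse squamous cell carcinoma line, grown in female C3H mice aged 6-8 weeks. The tumour cells overexpressed miR-21-5p (OE) or carried an empty vector (NC). Tumours received X-rays of 8 Gy per day on 3 days with olaparib at 50 mg/kg (IR + olaparib), the X-rays alone (IR), olaparib alone, or sham treatment. Olaparib blocks the PARP enzymes that act at DNA breaks. Crossing the 2 cell lines with the 4 treatments gave 8 groups of 3 tumours. The hosts carried their own lymphocytes, the microRNA was raised in the injected tumour cells only, and whole tumours were sequenced, so the RNA came from tumour cells and host cells together.

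Natural killer (NK) cells and cytotoxic T cells kill by releasing granules onto a target cell. Perforin opens a path through the target's membrane, and granzymes, a family of serine proteases, enter and cleave proteins inside. Release is controlled by activating and inhibitory receptors, several of which are shared between NK cells and activated CD8 T cells.

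Gzmb, Gzmc, Gzmd and Gzme lay together on the minus strand of chromosome 14 within 144.7 kb (RefSeq, GRCm38.p6), from Gzme at chr14:56117619-56120625 and Gzmd at chr14:56129556-56132603 to Gzmc at chr14:56231397-56241647 and Gzmb at chr14:56258836-56262334. The related granzyme genes Gzmf and Gzmg lay between them. Gzma lay on chromosome 13, Prf1 on chromosome 10, Ncr1 and Nkg7 on chromosome 7, and Klrb1c and Klrk1 on chromosome 6. The promoters of the 4 clustered granzymes among the 10 are shown for their likeness, and any link to the levels measured here was not tested. Each runs from 250 bases before to 50 bases after the start in the RefSeq promoter table, 5′ to 3′ on the minus strand, at chr14:56262285-56262584 for Gzmb, chr14:56234608-56234907 for Gzmc, chr14:56132544-56132843 for Gzmd and chr14:56120576-56120875 for Gzme. For Gzmc that start lies inside the span given for the gene. Capitals mark matches on either strand to the cyclic AMP response element TGACGTCA, the AP-1 motif TGANTCA, the RUNX motif TGTGGT and the T-box motif AGGTGTG.
Gzmb: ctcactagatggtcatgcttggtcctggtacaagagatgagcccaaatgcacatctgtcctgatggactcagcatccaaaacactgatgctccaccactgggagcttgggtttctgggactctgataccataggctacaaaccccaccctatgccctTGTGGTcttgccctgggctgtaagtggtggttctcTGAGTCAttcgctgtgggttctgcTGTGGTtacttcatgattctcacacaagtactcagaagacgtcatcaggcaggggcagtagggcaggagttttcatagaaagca
Gzmc: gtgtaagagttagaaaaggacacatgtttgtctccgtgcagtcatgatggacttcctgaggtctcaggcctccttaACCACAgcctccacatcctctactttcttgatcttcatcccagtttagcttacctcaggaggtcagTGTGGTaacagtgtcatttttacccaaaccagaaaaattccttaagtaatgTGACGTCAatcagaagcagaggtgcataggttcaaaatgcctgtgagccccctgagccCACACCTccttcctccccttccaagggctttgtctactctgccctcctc
Gzmd: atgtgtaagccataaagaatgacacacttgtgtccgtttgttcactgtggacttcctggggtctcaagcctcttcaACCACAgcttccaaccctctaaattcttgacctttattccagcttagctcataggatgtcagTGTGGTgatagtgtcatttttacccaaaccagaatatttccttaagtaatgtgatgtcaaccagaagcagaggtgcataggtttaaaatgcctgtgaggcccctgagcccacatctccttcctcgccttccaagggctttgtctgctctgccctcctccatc
Gzme: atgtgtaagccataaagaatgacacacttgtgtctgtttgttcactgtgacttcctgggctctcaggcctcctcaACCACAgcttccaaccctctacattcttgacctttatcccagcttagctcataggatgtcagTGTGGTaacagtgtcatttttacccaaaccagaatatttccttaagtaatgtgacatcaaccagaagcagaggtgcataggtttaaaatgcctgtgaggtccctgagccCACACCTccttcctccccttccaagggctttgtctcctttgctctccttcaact
The Gzmd and Gzme promoters were 94.0% identical over their alignment, and those of Gzmc and Gzmd 86.1%, against 58.7% for Gzmb and Gzmc. The RUNX motif was present in the promoters of all 10 genes and in 16.8% of the 32851 mouse promoters of that length. The T-box motif was in 3 of the 10 (Gzmc, Gzme and Nkg7) and in 5.84% of all promoters. The AP-1 motif was in Gzmb and Klrk1 and in 7.81% of all promoters, and the cyclic AMP response element was in Gzmc and in 1.79%. The cluster genes Gzmf and Gzmg, outside the 10, had the cyclic AMP response element too. No matches to different motifs overlapped, and a match is a run of letters, not a measured site.

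The agent that sets the OE line apart is shown next, as the mature mouse microRNA of RefSeq (chr11:86584120-86584141, minus strand, GRCm38.p6), with its seed, bases 2 to 8, in capitals. The microRNA itself was not measured here.
mmu-miR-21a-5p: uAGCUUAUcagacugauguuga

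Groups were taken from the letters of each tumour's coded identifier (E for OE, I for X-rays, O for olaparib, S for sham, as in EIO-744), and these went against the written treatment and cell line labels for 19 of the 24 tumours. The written labels placed 8 tumours in the other cell line, 8 in the other radiation arm and 16 in the other olaparib arm. Both readings cannot be right, and every direction given for OE, NC, X-rays or olaparib holds for the coded reading unless stated. Libraries held 37099055 to 40004502 counted reads. In 3 libraries the composition stood apart. OE IR + olaparib tumour EIO-744 had 10.2% of its counts in 6 fibroblast genes, NC IR tumour I-732 had 1.36% in 7 skeletal muscle genes, and NC sham tumour S-761 had the lowest shares of fibroblast and mast cell genes, at 0.262% and 0.000628%. NC IR tumour I-739, which was not among the 3, had the lowest share of 8 macrophage genes, 0.291% against 0.48% in the next tumour, and the highest share of 9 NK cell genes, 0.0568% against 0.0373%. Those NK cell genes include Gzma, Prf1, Ncr1, Klrb1c and Klrk1 of the 10, so this share is not independent of the killing genes. Gzma and Prf1 were highest in tumour I-739, at 104 and 316 CPM (TMM-scaled counts per 1000000 counted reads). Ncr1, Klrb1c and Klrk1 had 21.2, 5.06 and 14.0 CPM there, against 22.3, 5.66 and 63.6 CPM in the highest tumour for each. Of the squamous markers, Krt5 was at 0 in 5 tumours and had a median of 0.69 CPM. The integrin genes Itga6 and Itgb4 had at least 65.2 and 59.3 CPM in every tumour. The 10 killing genes took 0.00368% to 0.209% of a library's counts.

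All 5 granzymes were higher in irradiated tumours, by 2.24-fold for Gzmb to 6.08-fold for Gzme. The genes of perforin, Nkg7 and the receptors did not pass the test. Among the 10 genes, the largest differences were in Gzmc, Gzmd and Gzme, which lie with Gzmb in the chromosome 14 cluster. Radiation was tested as the mean of the 4 irradiated groups against the mean of the 4 unirradiated groups with edgeR's quasi-likelihood test, at a Benjamini-Hochberg adjusted p below 0.05. Of the 10 genes, 5 were called higher and 0 lower, while 39.1% of all tested genes were called and 21.7% were called higher. The median log2 fold change over all tested genes was 0.04. How many of all tested genes had sets of tumours that did not overlap was not counted, here or below. In whole tumours, a change in the number of cells of a type and a change in RNA per cell cannot be told apart. The p-values weigh each difference against the spread between these tumours. Under the written labels, 0 of the 10 genes and 1 gene in the whole table were called, and the 5 granzymes had log2 fold changes of 0.05 to 0.62. The summed level of 10 T cell markers was 27.7 to 179 CPM in irradiated tumours and 51.1 to 384 CPM in unirradiated ones. That of 9 NK cell markers was 35.4 to 510.0 CPM and 65.0 to 246 CPM. These markers include Gzma, Prf1, Ncr1, Klrb1c and Klrk1, so their sum is not independent of the 10 genes.

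**Figure D1:**
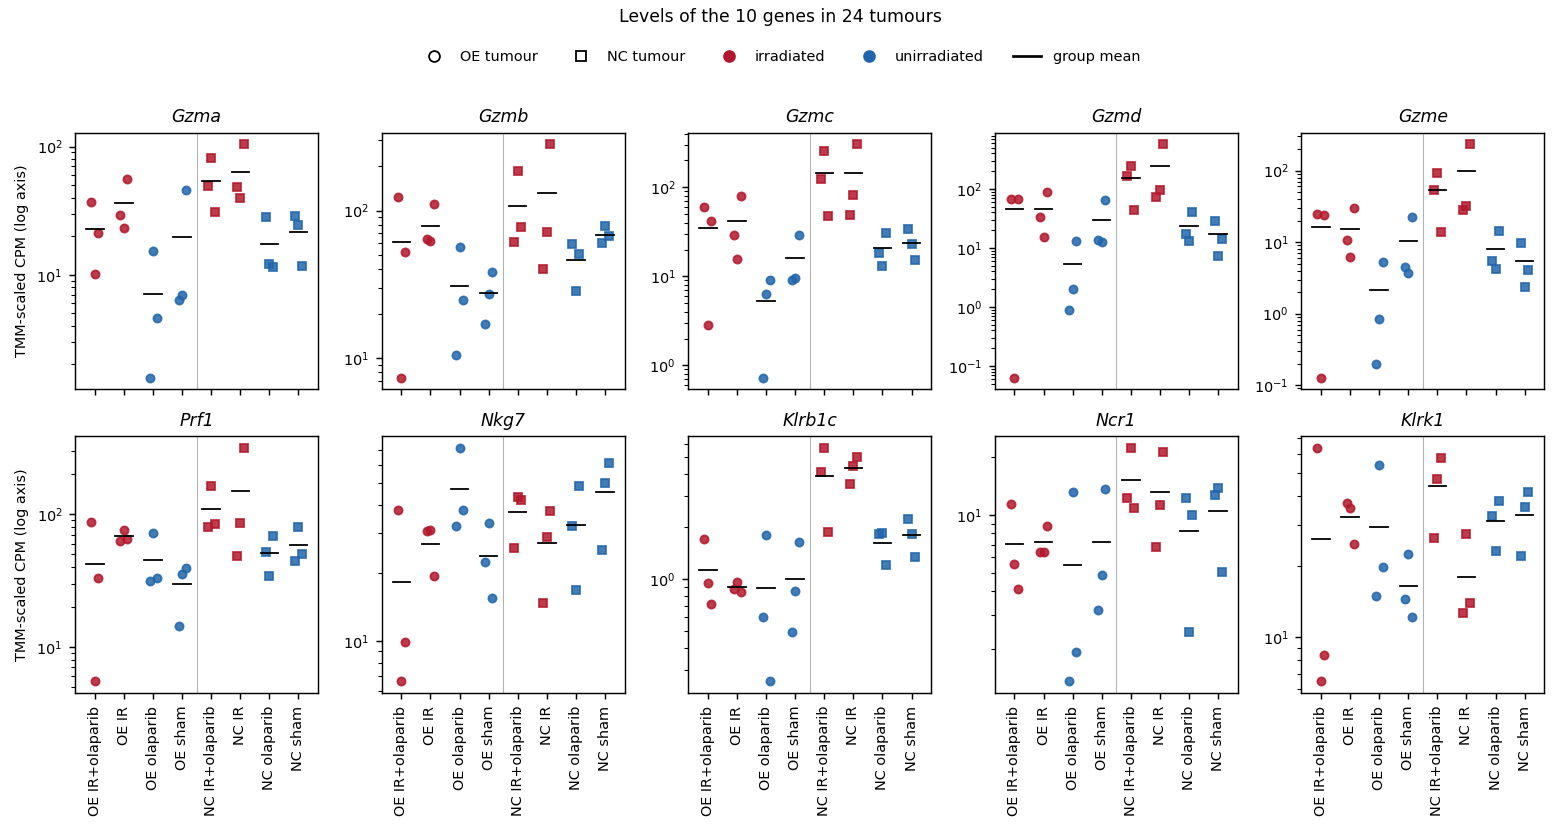
TMM-scaled CPM on a log axis of each of the 10 genes in 24 tumours, with a point per tumour and a bar at the mean of each group of 3. Irradiated NC tumours stand above unirradiated NC tumours for Gzma, Gzmc and Gzmd, tumour EIO-744 is the low point of OE IR + olaparib for the granzymes, and 9 of 12 OE tumours lie below every NC tumour for Klrb1c. How many of all tested genes separate in these ways was not counted.

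Gzmd encodes granzyme D, a granzyme found in mice and lacking a human counterpart. Its level was 68.2, 0.0633 and 68.3 CPM in OE IR + olaparib tumours EIO-713, EIO-744 and EIO-749, and 0.9, 1.99 and 13.1 CPM in OE olaparib tumours EO-701, EO-703 and EO-762. In the arms without olaparib it was 33.3, 15.3 and 87.0 CPM in OE IR and 13.7, 12.6 and 63.6 CPM in OE sham. The 2 OE radiation arms overlapped their unirradiated arms, through tumour EIO-744 with 2 counts and through OE sham tumour ES-741 at 63.6 CPM. In NC, the level was 167, 247 and 43.8 CPM under IR + olaparib and 17.3, 13.3 and 41.2 CPM under olaparib. NC IR tumours had 73.7, 96.3 and 565 CPM, against 29.1, 7.42 and 14.1 CPM in NC sham. All 6 irradiated NC tumours were above all 6 unirradiated NC tumours, and NC IR tumour I-739 was the highest of the 24. The averaged log2 fold change was 2.55 ± 0.66 (SE; adjusted p = 0.00619 by edgeR).

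Gzmc and Gzme, which encode granzymes C and E of the same mouse cluster, were higher in irradiated tumours as well. Gzmc had 60.4, 2.85 and 42.0 CPM in OE IR + olaparib and 29.4, 15.5 and 80.2 CPM in OE IR, against 0.725, 6.31 and 8.98 CPM in OE olaparib and 9.19, 9.46 and 29.3 CPM in OE sham. In NC it had 125, 259 and 47.4 CPM in IR + olaparib and 48.3, 82.7 and 303 CPM in IR, against 18.1, 12.9 and 30.8 CPM in olaparib and 34.0, 22.8 and 15.1 CPM in sham. In all, 9 of the 12 irradiated tumours were above every unirradiated tumour, and in NC the 2 sets did not overlap. The log2 fold change of Gzmc was 2.37 ± 0.50 (SE; adjusted p = 0.00163 by edgeR). Gzme ran at a lowest, median and highest of 0.127, 26.3 and 232 CPM in the 12 irradiated tumours and 0.2, 4.38 and 22.7 CPM in the 12 unirradiated ones. In all, 8 irradiated tumours were above all unirradiated ones, and tumour EIO-744 was below all of them. Its log2 fold change was 2.60 ± 0.65 (SE; adjusted p = 0.00508 by edgeR).

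Gzma and Gzmb encode the tryptase and the aspartate-cleaving protease that are the most studied granzymes. Gzma ran at 10.2, 38.0 and 104 CPM (lowest, median and highest) in irradiated tumours and 1.57, 11.9 and 45.8 CPM in unirradiated ones. The sets overlapped in OE, where OE sham tumour ES-741 held the 45.8 CPM, and not in NC, where irradiated tumours had 30.7 CPM or more and unirradiated ones 28.7 CPM or less. Its log2 fold change was 1.44 ± 0.40 (SE; adjusted p = 0.00895 by edgeR). Gzmb ran at 7.35, 67.7 and 281 CPM in irradiated tumours and 10.5, 44.6 and 78.5 CPM in unirradiated ones. Only 4 irradiated tumours were above every unirradiated one, and both cell lines overlapped. Its log2 fold change was 1.17 ± 0.39 (SE; adjusted p = 0.0252 by edgeR). The Gzmb call was lost without NC IR tumour I-739 (0.86, adjusted p = 0.0605 by edgeR), NC IR + olaparib tumour IO-728 (1.02, 0.0525) or OE IR + olaparib tumour EIO-713 (0.93, 0.057). The other 4 granzymes kept their calls in all 24 fits that each left out a tumour. Without tumour I-739 they had log2 fold changes of 1.30 for Gzma, 2.08 for Gzmc, 2.17 for Gzmd and 2.17 for Gzme.

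Prf1, which encodes perforin, ran at 5.48, 78.3 and 316 CPM in irradiated tumours and 14.4, 41.9 and 80.1 CPM in unirradiated ones. The sets overlapped, with 5 irradiated tumours above and tumour EIO-744 below every unirradiated tumour. The log2 fold change of Prf1 was 0.89 ± 0.36 (SE; 95% interval 0.14 to 1.63; adjusted p = 0.0545 by edgeR), above the 0.05 threshold. Prf1 was called higher by DESeq2 (0.90, adjusted p = 0.0225) and without the 3 libraries that stand apart (1.09, adjusted p = 0.00707 by edgeR). Without NC IR tumour I-739, at 316 CPM, it was 0.60 (adjusted p = 0.142 by edgeR). Nkg7, a membrane protein of cytotoxic granules, ran at 6.62, 29.7 and 43.1 CPM in irradiated tumours and 15.4, 32.7 and 71.0 CPM in unirradiated ones. Nkg7 had a log2 fold change of -0.43 ± 0.28 (SE; adjusted p = 0.219 by edgeR), and without OE IR + olaparib tumour EIO-713 it was called lower (-0.71, adjusted p = 0.0218 by edgeR).

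Among the receptors, Klrb1c encodes NK1.1, which marks NK cells in some mouse strains, and whether it does so in C3H was not tested. Klrb1c ran at 0.72, 1.78 and 5.66 CPM in irradiated tumours and 0.257, 1.49 and 2.22 CPM in unirradiated ones, with a log2 fold change of 0.68 ± 0.28 (SE; adjusted p = 0.0605 by edgeR). The 5 highest values were all irradiated NC tumours. DESeq2 called Klrb1c higher (0.70, adjusted p = 0.0314), and so did edgeR in 4 of the 24 fits that each left out a tumour. Ncr1 encodes NKp46, an activating receptor of NK cells. It ran at 4.12, 9.75 and 22.3 CPM in irradiated tumours and 1.35, 7.5 and 13.8 CPM in unirradiated ones, with a log2 fold change of 0.38 ± 0.38 (SE; adjusted p = 0.438 by edgeR). Klrk1 encodes NKG2D, an activating receptor of NK cells and CD8 T cells for stress-induced ligands. Its values were 6.49, 26.9 and 63.6 CPM in irradiated tumours and 12.2, 22.9 and 53.7 CPM in unirradiated ones. The log2 fold change of Klrk1 was 0.10 ± 0.32 (SE; adjusted p = 0.82 by edgeR), with a 95% interval from -0.57 to 0.78.

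**Figure D2:**
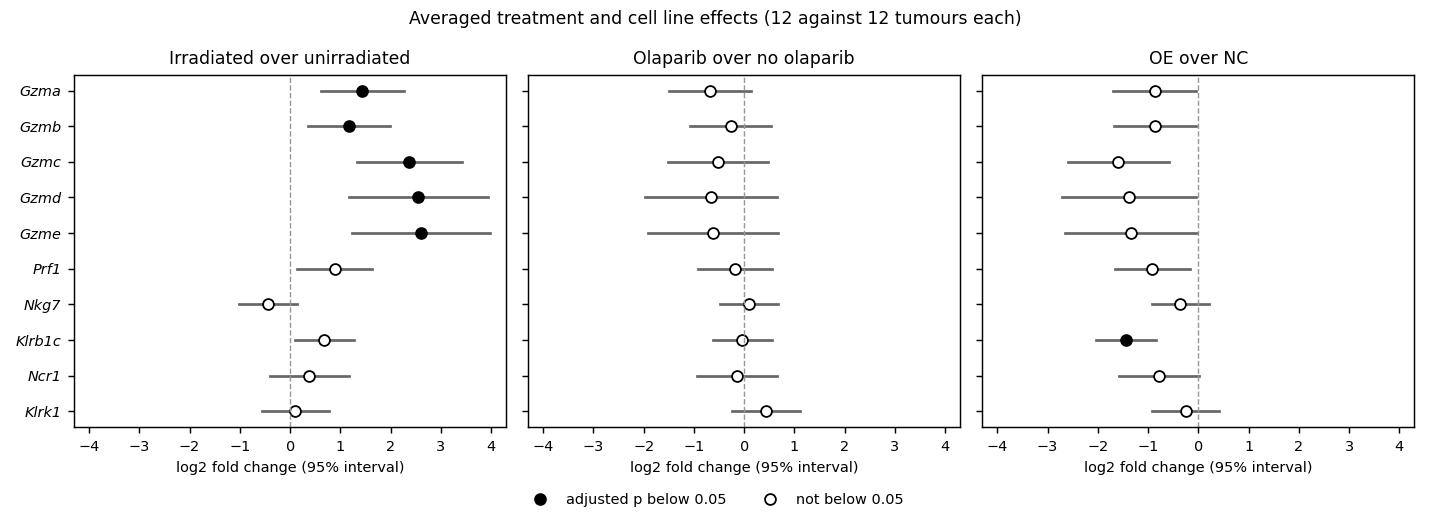
Log2 fold change with its 95% interval from the edgeR fit for each of the 10 genes, in 3 panels for irradiated over unirradiated, olaparib over no olaparib and OE over NC, each 12 against 12 tumours. Filled points passed an adjusted p of 0.05, which held for the 5 granzymes under radiation, for none of the 10 under olaparib and for Klrb1c alone in OE against NC.

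Taken arm by arm, with 3 tumours against 3, radiation gave 0 calls among the 10 genes in each of the 4 arms by edgeR. The share of all tested genes called was 6.78% in OE under olaparib, 0.248% in OE without olaparib, 1.46% in NC under olaparib and 10.0% in NC without olaparib. At an unadjusted p under 0.05 the arms gave 4, 0, 3 and 4 of the 10 genes in that order, beside 28.3%, 14.8%, 22.1% and 29.6% of all tested genes. Of these, Nkg7 in OE under olaparib was lower (log2 fold change -1.37), and the rest of the 10 so counted were higher. In the same order of arms, DESeq2 called 1, 0, 1 and 3 of the 10. Gzmd had log2 fold changes of 3.09 ± 1.36 in OE under olaparib, 0.59 ± 1.25 in OE without it, 2.67 ± 1.32 in NC under olaparib and 3.86 ± 1.39 in NC without it (SE). Those of Gzmc were 2.72 ± 1.01, 1.38 ± 0.96, 2.80 ± 1.00 and 2.59 ± 1.00 in the same arms. The interaction test, which set the radiation effect of OE against that of NC, called 0 of the 10 genes and 0.00604% of all genes, which was 1 gene. For Gzmd that difference was -1.42 (95% interval -4.05 to 1.21) and for Gzmb 0.17 (-1.45 to 1.79). Klrb1c had a difference of -1.18 (-2.35 to 0.00; adjusted p = 0.44 by edgeR), the single one of the 10 with an unadjusted p under 0.05. DESeq2 called 0 of the 10 for this difference.

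Olaparib gave 0 calls among the 10 genes and 0% of tested genes by edgeR, with 0 of the 10 and 1270 of all genes at an unadjusted p under 0.05 and 0 of the 10 by DESeq2. Log2 fold changes ran from -0.68 (95% interval -1.49 to 0.14) for Gzma to 0.43 (-0.24 to 1.10) for Klrk1. That of Gzmd was -0.67 (-1.98 to 0.65). The radiation effect with olaparib set against that without it also gave 0 of the 10 and 0% of all genes by edgeR, with 0 of the 10 at an unadjusted p under 0.05 and 0 by DESeq2. These differences ran from -0.79 (-2.27 to 0.69) for Prf1 to 0.77 (-1.21 to 2.75) for Gzmc.

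All 10 genes had a negative log2 fold change in OE against NC, and Klrb1c alone passed the test. The median over all tested genes was -0.01. Several of the 10 genes varied together within groups, so their signs are not independent. Klrb1c had 1.70, 0.95 and 0.72 CPM in OE IR + olaparib and 0.873, 0.964 and 0.845 CPM in OE IR, against 4.15, 5.66 and 1.87 CPM in NC IR + olaparib and 3.52, 4.47 and 5.06 CPM in NC IR. Unirradiated values were 0.6, 1.79 and 0.257 CPM in OE olaparib and 0.498, 0.853 and 1.64 CPM in OE sham, against 1.81, 1.84 and 1.21 CPM in NC olaparib and 2.22, 1.81 and 1.34 CPM in NC sham. In all, 9 of the 12 OE tumours were below every NC tumour, and the irradiated tumours of OE and NC did not overlap. The log2 fold change was -1.45 ± 0.29 (SE; adjusted p = 0.0355 by edgeR), 2.73-fold lower in OE. Of the 10 genes 1 was called lower and 0 higher, with 0.453% of all tested genes called and 0.236% called lower. Leaving out any 1 of 13 tumours ended the call, at adjusted p values of 0.0521 to 0.0884. Under the written labels it was -1.09 (adjusted p = 0.187 by edgeR), and without the 3 libraries that stand apart -1.49 (0.0169).

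Of the 10 genes, 7 had an unadjusted p under 0.05 in OE against NC, and 6 of them were not called by edgeR. Of all tested genes 15.5% had such a p. Without NC IR tumour I-739 the count was 2 of the 10, Klrb1c and Gzmc, beside 19.2% of all genes. Gzmc ran at 0.725, 12.5 and 80.2 CPM (lowest, median and highest) in OE and 12.9, 40.7 and 303 CPM in NC, with a log2 fold change of -1.59 ± 0.48 (SE; adjusted p = 0.129 by edgeR). In all, 6 OE tumours were below every NC tumour. DESeq2 called Gzmc lower (-1.59, adjusted p = 0.0332), as did edgeR without the 3 libraries that stand apart (-1.62, 0.0434). Without tumour I-739, Gzmc had -1.30 and was not called (adjusted p = 0.137 by edgeR). The values for the other granzymes were -0.86 for Gzmb, -0.87 for Gzma, -1.34 for Gzme and -1.38 for Gzmd, and Prf1 had -0.92. Without tumour I-739 they were -0.55 for Gzmb, -0.73 for Gzma, -0.91 for Gzme, -0.99 for Gzmd and -0.62 for Prf1. Ncr1 had -0.78, Nkg7 -0.36 and Klrk1 -0.25. Under the written labels Nkg7 and Klrk1 had the opposite sign, at 0.31 and 0.52, with no call under either reading. Klrb1a and Klrb1f, receptor genes of the Klrb1 family, had -1.07 (adjusted p = 0.135 by edgeR) and -1.10 (0.141).

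For 5 tumours the group was the same under both readings of the labels, and they held 3 irradiated tumours (OE IR + olaparib EIO-713 and NC IR I-732 and I-736) and 2 unirradiated ones (OE olaparib EO-762 and OE sham ES-706). For 8 of the 10 genes, all but Nkg7 and Klrk1, every irradiated tumour of the 5 was above both unirradiated ones. The share of all tested genes separated in this way was not counted. Several of these genes varied together within groups, so the 8 are not independent, and no conclusion is drawn from their number. Gzmd had 68.2, 73.7 and 96.3 CPM in the irradiated tumours, against 13.1 and 13.7 CPM in the unirradiated ones. Gzmb had 123, 40.4 and 71.8 CPM, against 24.9 and 16.9 CPM. The 2 NC tumours were both irradiated and the 2 unirradiated tumours both OE, so cell line and radiation are partly tied in this comparison, which has no test.

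The order of the 8 groups by mean level placed NC IR first for Gzma, Gzmb, Gzmc, Gzmd, Gzme, Prf1 and Klrb1c. Without tumour I-739 NC IR was first for Klrb1c alone, and NC IR + olaparib was first for the other 6 of these genes. For Gzmd the means ran from 245 ± 278 CPM in NC IR and 153 ± 102 CPM in NC IR + olaparib down to 5.34 ± 6.77 CPM in OE olaparib (SD, n = 3 each), and the NC IR mean without tumour I-739 was 85 CPM. Of the 70 pairs of groups next to each other in the order of a gene, 68 had overlapping values. The exceptions were OE olaparib below OE sham for Gzmc and OE IR below NC IR + olaparib for Prf1. Per length of transcript, mean levels in irradiated tumours were 127 CPM per kb for Gzmd, 102 for Gzmc, 65.9 for Gzmb, 49.8 for Gzme and 43.8 for Gzma. In unirradiated tumours they were 19.8, 18.4, 30.1, 7.06 and 16.3 CPM per kb, and the order of the genes differed between the cell lines. In irradiated OE tumours Gzmb had 48.7 and Gzmd 47.0 CPM per kb, and in unirradiated OE tumours 20.3 and 18.3. In irradiated NC tumours Gzmb had 83.2 and Gzmd 206 CPM per kb, and in unirradiated NC tumours 39.9 and 21.2.

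The tumours also differed in the mix of granule genes. The summed CPM of Gzmc, Gzmd and Gzme per CPM of Prf1 had a lowest, median and highest of 0.481, 2.72 and 4.33 in irradiated tumours and 0.058, 0.809 and 2.95 in unirradiated ones. Gzmb per Prf1 was 0.765, 0.966 and 1.68 in irradiated tumours and 0.333, 0.91 and 1.36 in unirradiated ones. Both ratios overlapped between the sets, and these ratios are descriptions with no test.

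**Figure D3:**
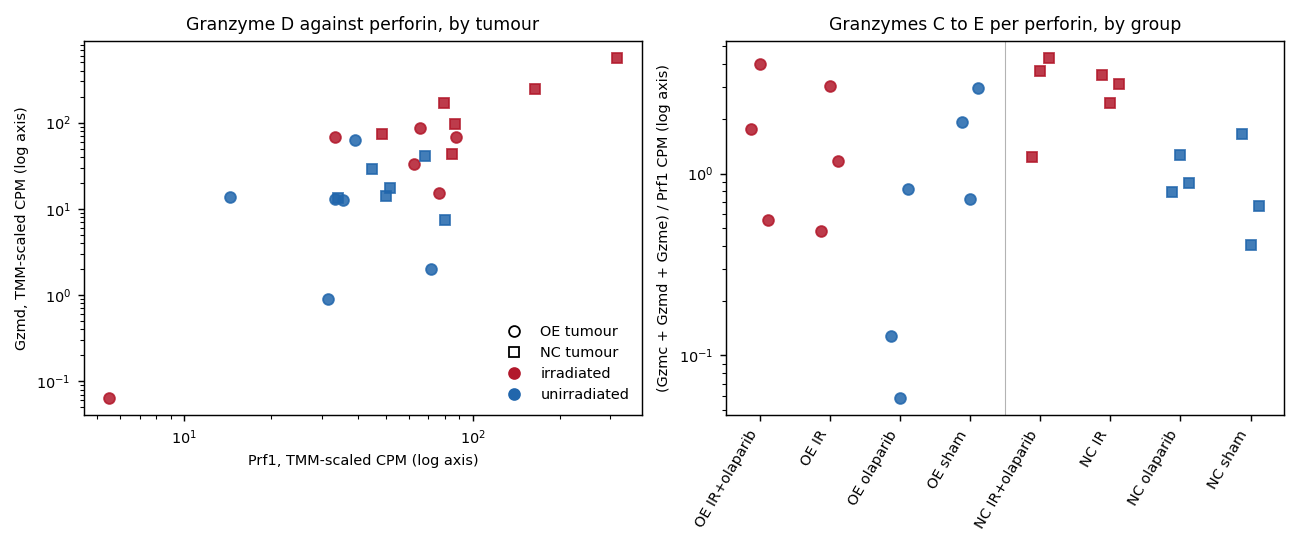
Left, Gzmd against Prf1 in TMM-scaled CPM on log axes, with a point per tumour. Right, the summed CPM of Gzmc, Gzmd and Gzme divided by that of Prf1 on a log axis, by group; the median was 2.72 in irradiated and 0.809 in unirradiated tumours, and OE olaparib holds the lowest ratio, 0.058.

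Within groups, several of the 10 genes varied together. As deviations from the group mean of log2 CPM over the 24 tumours, Gzmd and Gzme had a Pearson r of 0.99, Gzmc and Gzme 0.94, Gzmb and Prf1 0.94, Nkg7 and Klrk1 0.88, and Gzma and Ncr1 0.82. Gzme and Nkg7 had 0.26 and Gzma and Nkg7 0.17. Without the 3 libraries that stand apart, Gzmb and Prf1 had 0.90 and Gzma and Ncr1 0.83, and Gzme and Klrk1 had -0.11 in place of 0.15. These values share the libraries and their scaling and are descriptions.

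**Figure D4:**
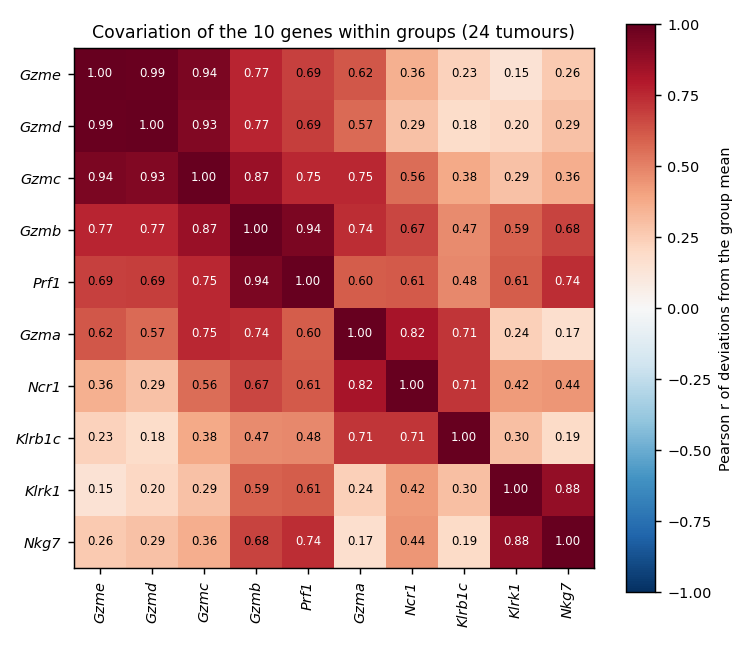
Pearson r between each pair of the 10 genes, on deviations of log2(CPM + 0.5) from the group mean in 24 tumours, with the colour scale from -1 to 1. Gzmc, Gzmd and Gzme form a block with r of 0.93 or more, Gzmb pairs with Prf1, Gzma with Ncr1, and Nkg7 with Klrk1.

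Among 12574 genes compared over the 24 tumours, the 3 closest to each gene in this measure were named. For Gzmd they were Gzme (0.99), Gzmf (0.98) and Gzmg (0.96), and for Gzme they were Gzmd, Gzmg (0.98) and Gzmf (0.96). Gzmc had Gzme, Gzmd (0.93) and Gzmg (0.89). Gzmb had Prf1, Prpf3 (0.90) and Eomes (0.89), and Prf1 had Gzmb, Eomes (0.92) and Zbtb32 (0.90), where Eomes encodes a T-box transcription factor of NK and CD8 T cells. Gzma had Ncr1, Clnk (0.79) and Avil (0.79). Ncr1 had Samd3 (0.91), Clnk (0.85) and Klrb1f (0.85), and Klrb1c had Klrb1a (0.90), Slc2a3 (0.73) and Klrb1f (0.72). Nkg7 had Gimap7 (0.98), Psme2b (0.96) and Rasal3 (0.95), and Klrk1 had Sp110 (0.93), Gbp8 (0.92) and BC147527 (0.92).

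Sequence likeness bears on the cluster and on Klrb1c. The longest annotated transcripts of Gzmd and Gzme were 94.8% identical over their alignment, and 21.5% of the 50-base windows of Gzmd and 19.1% of those of Gzme occurred exactly in a related granzyme. The share was 4.14% for Gzmc and 0% for Gzma and Gzmb. Klrb1c was 87.6% identical to Klrb1a in transcript and shared 5.44% of its windows with related genes. How the counting treated reads that match more than 1 gene was not given in the sources used here, so the split between Gzmd and Gzme is uncertain, and so in smaller part is that between Klrb1c and Klrb1a.

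The related genes of the same pathway were read as counts of those called under radiation, beside 21.7% higher and 17.5% lower over all tested genes. Of the 4 other granzymes tested, 2 were called higher and 0 lower. Gzmf, in the cluster, had a log2 fold change of 2.88 ± 0.70 and Gzmg 2.34 ± 0.73 (SE; adjusted p of 0.00411 and 0.0171 by edgeR), while Gzmk, a granzyme of memory T cells, had -0.96 (0.104). Of 10 granule proteins, processing enzymes and granzyme inhibitors, 4 rose and 0 fell, with a median of 0.38. They included the serpin genes Serpinb9b (2.26) and Serpina3g (1.36) and the protease gene Ctsl (0.75), and macrophages express Ctsl too. Of 9 genes of granule transport and fusion, 4 rose and 0 fell, with a median of 0.09, led by the lysosomal membrane genes Lamp1 (0.63) and Lamp2 (0.50) and the fusion gene Vamp8 (0.34), which many cell types express.

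Of 5 other killing ligands and cytokines, 0 were called by edgeR and 0 had an unadjusted p under 0.05, with Tnfsf10 at 0.49, Fasl at -0.48 and Tnf at 0.45. Of 27 further NK receptors and adaptors, 6 rose and 1 fell, with a median of -0.04. The leading 3, Fcgr3 (1.15), Fcgr4 (1.55) and Tyrobp (0.66), encode Fc receptors and their adaptor and are also expressed by macrophages. Of 10 ligands of NK receptors, 2 rose and 0 fell (Clec2d 0.60 and Nectin2 0.63), against 0 and 1 without the 3 libraries that stand apart. Of 21 cytokines and transcription factors of cytotoxic cells, 7 rose and 2 fell, against 4 and 5 without those libraries. Tox, a factor of T cell exhaustion, fell (-1.53), and Il15ra (0.88) and Il18 (0.44), genes of the interleukin-15 and interleukin-18 signals that act on NK cells, rose. Among 10 chemokines and receptors of lymphocyte entry, 3 fell, with Cx3cr1 at -2.86, Ccl5 at -0.94 and Xcl1, a chemokine made by NK and T cells, at -0.88.

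Markers of other cells differed with radiation too, and their part in the granzyme results was not tested. The 9 NK cell markers include Gzma, Prf1, Ncr1, Klrb1c and Klrk1 of the 10. Of the 9, 1 rose (Gzma) and 1 fell (Klrc1, -0.88), with a median of 0.10. Without the 3 libraries that stand apart 2 rose and 0 fell. Of 10 T cell markers, 0 rose and 7 fell, with a median of -0.96, and without those libraries 3 fell. Cd3d had -1.34 and Cd3e -1.26, both parts of the T cell receptor complex, and Cd5 -1.53. Prf1 per CPM of Cd3e had a lowest, median and highest of 1.38, 7.37 and 19.0 in irradiated tumours and 0.85, 1.5 and 7.26 in unirradiated ones. Ncr1 per CPM of Cd3e was 0.356, 1.17 and 1.91, against 0.0518, 0.216 and 2.53. These ratios are descriptions with no test, and Cd3e, their denominator, was itself lower in irradiated tumours. Every NK and T cell marker was detected in all 24 tumours.

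Neutrophil and macrophage markers were higher in irradiated tumours, and dendritic cell markers were lower. All 6 tested neutrophil markers rose, with a median of 2.66 (4 of 6 without the 3 libraries that stand apart), and 7 of 8 macrophage markers rose, with a median of 0.84 (7 of 8 without them). The summed neutrophil level was 26.5 to 451 CPM in irradiated tumours and 20.7 to 50.4 CPM in unirradiated ones, and the summed macrophage level 2610 to 18700 CPM and 4750 to 13400 CPM, with the 2610 CPM in tumour I-739. The leading neutrophil genes were Mmp8 (3.23), S100a8 (3.73) and Csf3r (1.33), and the leading macrophage genes were Lyz2 (1.03), Adgre1 (0.97) and Mrc1 (0.97). Of 8 mast cell and basophil markers 3 rose (2 without them, 6 without tumour I-739). Of 7 dendritic cell markers 5 fell, with a median of -1.77 (5 without them), led by Siglech (-4.00), Ccr9 (-3.33) and Clec9a (-2.23). Of 6 B cell markers 0 were called and 0 had an unadjusted p under 0.05 by edgeR. Of 6 fibroblast markers 2 rose (without the 3 libraries 2 rose and 1 fell), 5 of 7 skeletal muscle markers rose (0 without them) and 1 of 6 squamous markers rose (Epcam; 1 gene without them, 2 without tumour I-739). In OE against NC 1 gene of these 18 lists was called by edgeR, Klrb1c.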

How the data were processed

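RNA of 24 whole tumours was extracted with TRIzol and sequenced. The table the authors deposited holds raw read counts per gene and tumour, not normalized, made with fastp, HISAT2 and HTSeq on mm10 per the submitters' processing notes. Versions, annotation, strand setting and the treatment of multi-mapping reads were not given in the sources used here. Column totals, 37099055 to 40004502, give the depth. No molecular identifiers were named, so reads need not be independent molecules, and replicate tumours set the precision.

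Groups came from the letters of the coded identifier, and the written labels gave an alternative. The labels do not say whether each tumour came from its own mouse. Counts were fitted in 8 groups of 3 with edgeR 4.0.16 (R 4.3.3), TMM scaling and filterByExpr, by quasi-likelihood F-tests with Benjamini-Hochberg adjustment over 16560 genes and a threshold of 0.05. Intervals are 95% intervals from that fit. In a contrast of averages, each group has equal weight on the log2 scale. The procedure was tested on simulated data. Alternatives were the written labels, DESeq2 1.42.0 size factors and test, no filter, the compared groups alone, each tumour left out, and, chosen after the data were seen, the omission of 3 libraries that stand apart and, for group orders and list counts, of tumour I-739.

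The 10 genes and the 18 lists (176 of 186 genes matched by symbol) were chosen with earlier results of these data known. One further list gene is not reported here and enters no list count. All 10 genes are named, with up to 3 genes per list by smallest p under radiation. Genes of like pattern are the 3 with the highest r among those with a mean of at least 1 CPM, on log2(CPM + 0.5), leaving out predicted genes and pseudogenes. Promoter and microRNA sequences and positions come from RefSeq (GRCm38.p6, the mm10 assembly), and transcripts from GENCODE.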

Additional observations from a re-analysis of the deposited data

How the results depend on the processing

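Direction and call under radiation held for Gzma, Gzmc, Gzmd and Gzme in each alternative on the coded groups, with log2 fold changes over the fits without 1 tumour of 1.30 to 1.82 for Gzma, 2.08 to 2.56 for Gzmc, 2.17 to 3.02 for Gzmd and 2.17 to 3.11 for Gzme. Other counts are given as the percentage of tested genes called. With groups from the written labels it was 0.00604% (1 gene) for radiation, with 0 of the 10, and 0.0302% for radiation in NC without olaparib. It was 0% in the other 3 radiation arms, in OE against NC (0 of the 10) and for the interaction of radiation and cell line. The cause was not tested.

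For radiation in OE under olaparib (6.78%), DESeq2 gave 14.5%, no filter 2.72%, the compared groups alone 0% and the omission of the 3 libraries that stand apart 2.02%. In the same order, OE without olaparib (0.248%) gave 3.89%, 0.0767%, 14.4% and 6.52%. NC under olaparib (1.46%) gave 8.62%, 0.303%, 14.6% and 16.2%, and NC without olaparib (10.0%) gave 17.4%, 2.92%, 0% and 0.0597%. OE against NC (0.453%) gave 0.749% with DESeq2 size factors, 3.79% with DESeq2, 0.143% with no filter and 4.99% without the 3 libraries. The interaction of radiation and cell line (0.00604%) gave 1.43% with DESeq2 and 1.42% without the 3. With DESeq2, olaparib (0%) gave 0.00604% and the interaction of radiation and olaparib (0%) gave 0.0423%.

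Of the 10 genes, DESeq2 called 3 in NC without olaparib, 1 in each olaparib arm and 2 in OE against NC. The compared groups alone called 2 in OE without olaparib and 3 in NC under olaparib. Without the 3 libraries 1 was called in NC under olaparib and 2 in OE against NC. The cause was not tested.

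Leaving out 1 tumour at a time gave 0.146% to 18.8% in OE under olaparib, 0% to 2.35% in OE without, 0.00588% to 10.3% in NC under olaparib, 0.0118% to 22.8% in NC without, 0.0878% to 4.96% in OE against NC and 0% to 3.51% for the interaction with cell line. Of the 10 genes it gave 4 to 7 for radiation, 0 to 2 in OE under olaparib, 0 to 1 in NC under olaparib, 0 to 3 in NC without, and 0 to 1 in OE against NC. Arms left with 2 tumours share the spread of the other groups. No paired analysis was possible because the replicate numbers are tumour numbers that no 2 groups share.

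The reading of the labels limits every direction, since the readings differ for 19 tumours. With 3 tumours a group, single arms had standard errors of 0.96 to 1.39 on the log2 scale for Gzmc, Gzmd and Gzme. Klrb1c was low, at 0.257 to 5.66 CPM.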
